A study of Mus musculus with 15 samples.

Results

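The podocyte genes described here are 8 genes named for this purpose: Nphs1, Podxl, Synpo, Plce1, Ptpro, Cd2ap, Tcf12 and Kirrel. They were taken from the array table through probe sets, groups of probes to 1 transcript, that map to exactly 1 gene symbol. All 8 were found, on 9 of the 35557 probe sets, among 19938 genes that could be named in this way. Nphs1 had 2 probe sets. The one with the higher mean over the 15 arrays stood for the gene, and the second was followed beside it.

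The cells came from kidneys of newborn CD-1 mice carrying the transgene Tg(Crym-EGFP)82Gsat, in which a bacterial artificial chromosome places enhanced green fluorescent protein under Crym sequence. All 15 samples carry this transgene, none received a treatment that the labels name, and sex is given as unknown. Pups were taken late in gestation and fostered to CD-1 mice, and cells were sorted by fluorescence at P0, P1, P2, P3 and P4 (postnatal days 0 to 4), with 3 samples a day and about 4 kidneys pooled in each. By their labels, the P0, P1, P2 and P3 samples (12 in all) are cap mesenchyme, a layer of nephron progenitors around the ureteric bud tips. The 3 P4 samples carry the label renal vesicle, the earliest epithelial stage of the nephron, although the series design names cap mesenchyme for every day. Age and labelled compartment therefore cannot be told apart at P4. The sorted cells are those in which this 1 transgenic line drives the reporter, and no source used here describes the gate. Separate litters are not stated for the 3 samples of a day, so p-values measure the spread between these pools.

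Podocytes are the epithelial cells that wrap the capillaries of the glomerulus. Their interlocking foot processes are joined by the slit diaphragm, a junction of large adhesion proteins, and are held open by a negatively charged surface coat and an actin skeleton. They arise from the proximal part of the renal vesicle as it passes through the comma and S shapes, after the progenitors have left the cap mesenchyme. The cells analysed here are thus at stages ahead of the mature podocyte, and the question was which of its genes were measurable by P4.

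The labels were first checked against marker genes. Crym itself fell by 3.57 on the log2 scale at P4 and Six2, which keeps progenitors undifferentiated, fell by 2.15. Lhx1 rose by 2.16 and Jag1, a Notch ligand of the renal vesicle, by 2.30. Of 10 cap mesenchyme markers 8 were lower at P4, and of 12 renal vesicle markers 6 were higher, by limma with Benjamini-Hochberg adjustment over all named genes. Much of this preceded P4. Over the days labelled cap mesenchyme 7 of the 12 renal vesicle markers rose and 5 of the 10 cap mesenchyme markers fell, and from P3 to P4 0 of the 12 rose and 5 of the 10 fell. Lhx1 had a mean of 7.14 at P0, 9.86 at P3 and 10.25 at P4, and Jag1 of 7.30, 9.71 and 10.49. On each of the 5 days the first replicate differed from the other 2. Values on these 5 arrays were less spread (interquartile range 2.14 to 2.27 against 2.52 to 2.77), and 8494 genes (42.6%) differed between the sets with the day in the model. Of the 8 podocyte genes 5 did so. Kirrel was lower by 0.57 in the first replicates, Tcf12 by 0.51 and Plce1 by 0.31, whereas Nphs1 was higher by 0.23 and Cd2ap by 0.22. For this reason a fit with the array set (first replicates or the rest) as a block and a fit to replicates 2 and 3 alone stand beside the results of the 8 genes that they change. With the block 2 of the 12 renal vesicle markers rose from P3 to P4, and 6 of the 10 cap mesenchyme markers fell.

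The table holds no detection call, so a level of background was taken from genes of smell and pheromone receptors, which kidney is not known to transcribe. A probe set was called above background on an array where its deposited log2 value exceeded the 95th percentile of 1223 such probe sets on the same array. This level lay at 7.03 to 7.27 in the first replicates and at 6.34 to 6.72 in replicates 2 and 3. It passed 41.8% to 50.2% of all named genes in the former and 58.7% to 63.3% in the latter. A gene was called detected on a day where all 3 arrays passed. Brightness differs between probe sets, so values of different genes were not compared as amounts of transcript.

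On all 3 P4 arrays 4 of the 8 genes were above background (Podxl, Plce1, Cd2ap and Tcf12), against 49.6% of all named genes. The number was 2 at P0, P1 and P2 (Cd2ap and Tcf12) and 3 at P3, when Plce1 joined them. The share of all named genes was 44.6% at P0 and P1, 41.4% at P2 and 45.3% at P3. Ptpro and Kirrel passed on 2 of 3 P4 arrays, and Nphs1 and Synpo on 1 of 3. The count of 4 rests on the percentile chosen. It was 7 with the 90th percentile and 2 with the 99th. The share of all named genes at those percentiles is not given here, so these counts have nothing to be set against.

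**Figure D1:**
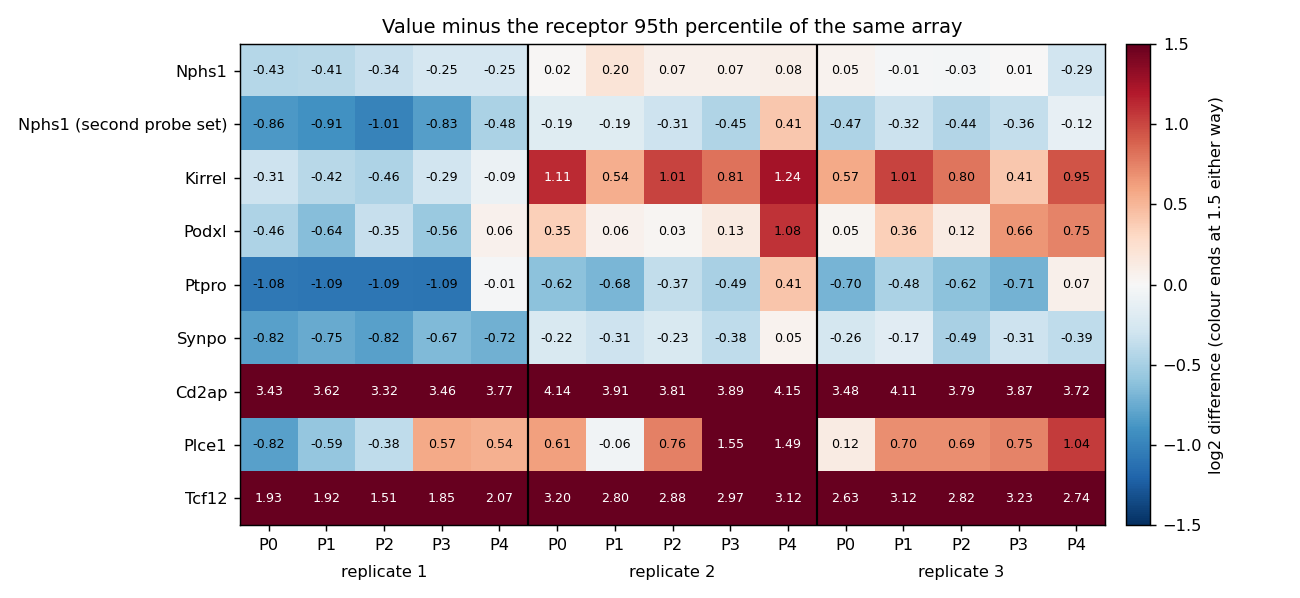
Each cell gives the deposited log2 value minus the receptor 95th percentile of the same array, with genes in rows and the 15 arrays in columns, ordered by replicate number and then by day. Cd2ap and Tcf12 are above 0 on all 15 arrays, Synpo is above 0 on 1, and Ptpro crosses from below 0 on all 12 arrays of P0 to P3 to above 0 on 2 of 3 at P4.

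Ptpro, a receptor type protein tyrosine phosphatase of the podocyte surface also known as GLEPP1, gave the clearest change. The gene lies at chr6:137252299-137464634 (GRCm38.p6, RefSeq). At P0 its log2 values were 6.09, 5.73 and 6.00 in replicates 1, 2 and 3, at P1 6.09, 5.94 and 5.94, at P2 6.18, 6.21 and 6.00, and at P3 6.04, 6.09 and 5.95. At P4 they were 7.02, 6.86 and 6.79. Every P4 array lay above every earlier array, with a gap of 6.21 to 6.79 between the groups, as was so for 1.8% of all named genes. Ptpro rose 1.83-fold over the mean of P0 to P3 (log2 difference 0.87, SE 0.10, limma adjusted p = 5.58e-05). Between P3 and P4 alone the rise was 1.82-fold (SE 0.12 on the log2 scale, limma adjusted p = 0.00275), and over P0 to P3 the slope was 0.04 per day (adjusted p = 0.968). Leaving out any 1 of the 15 samples kept the call in both comparisons with P4. In replicates 2 and 3 alone the difference from P0 to P3 was 0.84 (adjusted p = 0.00107). On all 12 arrays of P0 to P3 Ptpro was below background, by 0.37 to 1.09, so that the fold is one of deposited values and its size rests on background in the earlier samples. The P4 levels were close to background as well. Replicates 2 and 3 exceeded it by 0.41 and 0.07, and replicate 1 fell short by 0.01.

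Podxl, or podocalyxin, is the sialic acid rich protein that charges the podocyte surface (chr6:31519493-31563937). Its values were 6.71, 6.70 and 6.74 at P0, 6.53, 6.68 and 6.78 at P1, and 6.93, 6.60 and 6.74 at P2, where the 3 days overlapped. At P3 they were 6.57, 6.71 and 7.32, and at P4 7.09, 7.53 and 7.46. Replicate 3 of P3 was the highest of the 12 earlier arrays and lay above replicate 1 of P4, so that 2 of 3 P4 values exceeded all others. That same P3 array had a summed level of 110.4 over the 12 renal vesicle markers, inside the P4 range of 107.4 to 113.9. Replicate 2 of P3, where Podxl was 6.71, had a sum of 110.9 and lay inside that range too. Podxl rose 1.53-fold from P0 to P3 to P4 (log2 difference 0.61, SE 0.14, limma adjusted p = 0.0235). The call was lost without P4 replicate 2 (adjusted p = 0.176) or without P4 replicate 3 (0.165). Within replicates 2 and 3 the difference was 0.71 (adjusted p = 0.0146). From P3 to P4 the difference of 0.50 did not pass (SE 0.18, adjusted p = 0.487). Without P3 replicate 3 it was 0.72, with an adjusted p of 0.0527. In replicates 2 and 3 Podxl was above background on all 10 arrays and in the first replicates only on that of P4, by 0.06.

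Podxl is also made by endothelial cells, so their markers were read on the same arrays. Of 12 endothelial markers, 7 were above background on none of the 15 arrays, among them Pecam1, Kdr and Cdh5. The share of all named genes above background on no array is not given here. On all 3 P4 arrays 3 of the 12 were above background, beside 49.6% of all named genes. Of these, Ramp2 and Egfl7 were above background on all 15 arrays and Cldn5 on 14. Of the 12, 2 were called higher at P4, Cldn5 by 1.56 and Tek, itself never above background, by 0.40. Their summed log2 level was 78.4 to 80.3 in P0 to P3 and 81.0 to 81.2 at P4. Ramp2, whose probe set had the highest mean value of the list, had a mean of 8.19 at P4 against 9.11 before (limma adjusted p = 0.0619). With the array set as a block Ramp2 was called lower (0.00836). The part of endothelial RNA in the Podxl level was not tested. In such bulk samples fewer cells of a type and less RNA per cell cannot be told apart.

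Plce1 encodes phospholipase C epsilon, a signalling enzyme whose loss causes early nephrotic disease in people (chr19:38481034-38785105). It followed another course from Ptpro and Podxl. Its values were 6.35, 6.95 and 6.82 at P0, 6.59, 6.56 and 7.12 at P1, and 6.89, 7.34 and 7.32 at P2. At P3 they reached 7.70, 8.13 and 7.41, and at P4 they were 7.57, 7.94 and 7.76. All 3 P3 arrays lay above all 9 of P0 to P2, and the P3 and P4 arrays overlapped. The slope over the days labelled cap mesenchyme was 0.35 per day (SE 0.07, limma adjusted p = 0.0181), a 1.28-fold rise with each day. It was the 1 rising member among the 8, and 0.843% of all named genes rose in this comparison. With the replicate block the slope had an adjusted p of 9.23e-04, and in the array set block fit 7.62e-04. In replicates 2 and 3 alone it was 0.31 (adjusted p = 0.0593). The call was also lost without P0 replicate 1 (0.0665), P0 replicate 3 (0.0535) or P3 replicate 2 (0.0707). From P3 to P4 the difference was 0.01 (95% interval -0.45 to 0.48). Against the mean of P0 to P3, P4 differed by 0.66 (SE 0.17), with an adjusted p of 0.0507 in the fit without a block, 0.00471 with the array set as a block and 0.0873 in replicates 2 and 3. Plce1 was above background on 1 to 2 arrays a day from P0 to P2 and on all 6 arrays of P3 and P4.

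**Figure D2:**
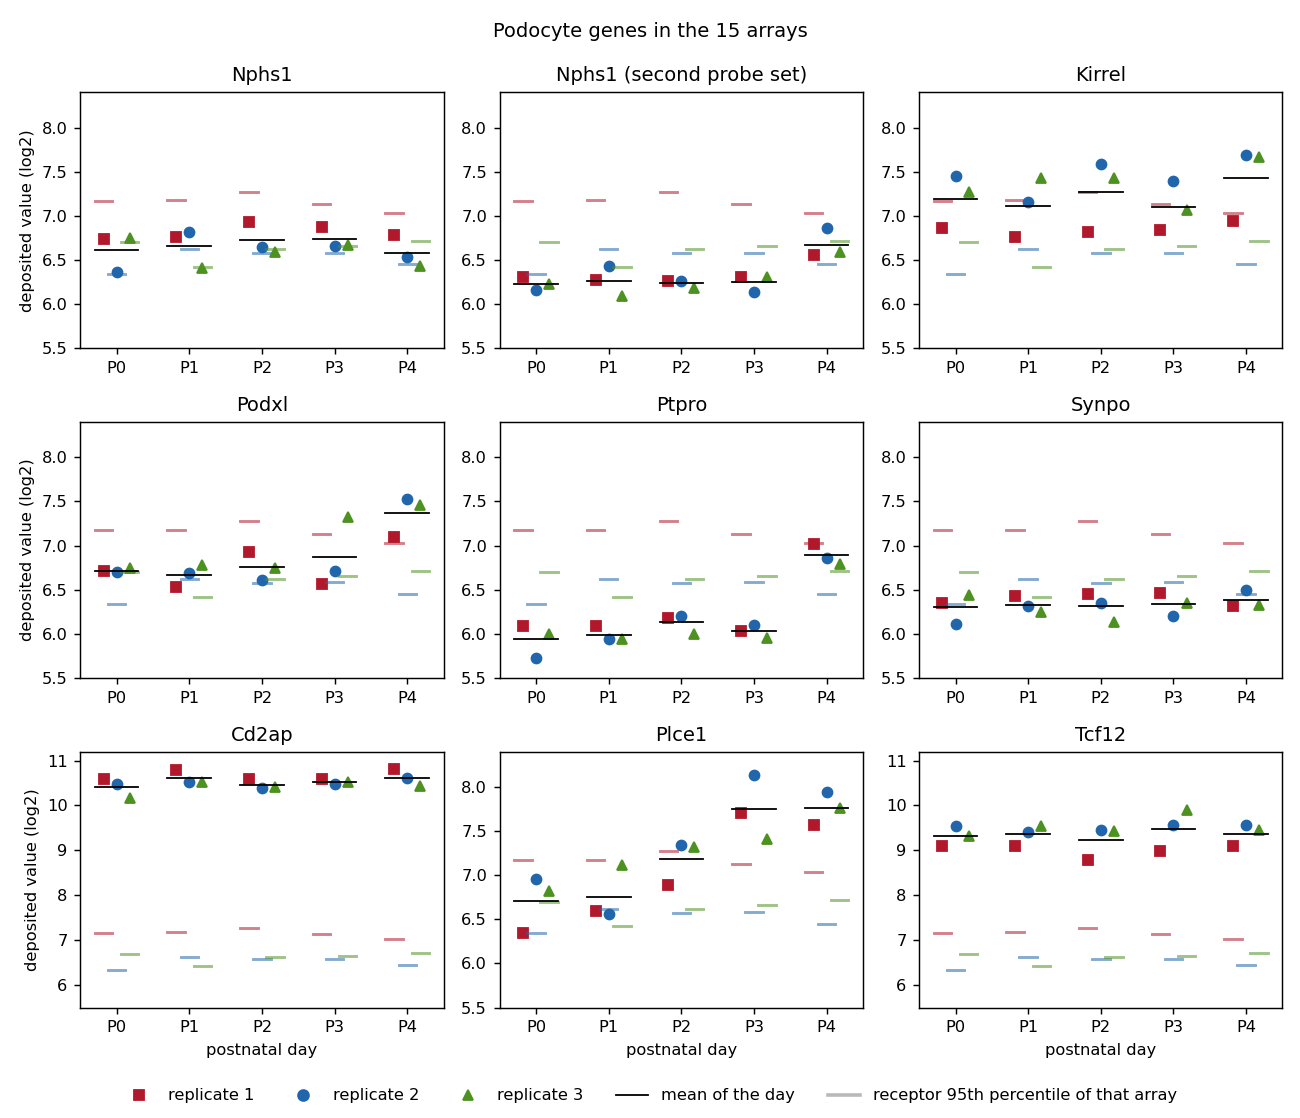
Deposited log2 values (vertical axis) of the 8 genes and the second Nphs1 probe set in all 15 samples by postnatal day, with a marker for each replicate number, a black line for the mean of the day and a coloured dash for the receptor 95th percentile of that array. The vertical range is 5.5 to 8.4 except for Cd2ap and Tcf12. Ptpro steps up at P4, with 6.79 to 7.02 against at most 6.21 before, whereas Plce1 climbs by P3.

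Nphs1 encodes nephrin, the adhesion protein that spans the slit between foot processes (chr7:30458207-30488623). Its 2 probe sets gave different results. On the one with the higher mean, the P4 values were 6.78, 6.53 and 6.43, inside the range of 6.36 to 6.93 (median 6.70) of the 12 earlier arrays. The difference was -0.10 (95% interval -0.37 to 0.16, limma adjusted p = 0.999). It was above background on 7 of 15 arrays, 6 of them of P0 to P3, and never by more than 0.20. Its annotation lists cDNA records but no RefSeq transcript.

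The second Nphs1 probe set is annotated with the RefSeq transcript. On it the P4 values were 6.55, 6.86 and 6.60, and the 12 earlier values ran from 6.10 to 6.43 with a median of 6.27. All 3 P4 arrays lay above all earlier ones. Nephrin was higher at P4 by 0.42 on this probe set (SE 0.09, limma adjusted p = 0.0201). In replicates 2 and 3 alone the difference was 0.50 (adjusted p = 0.0462). The call was lost without P4 replicate 2 (0.183) or P4 replicate 3 (0.0631), and from P3 to P4 the difference of 0.42 had an adjusted p of 0.205. Of the P4 arrays 1 was above background, replicate 2 by 0.41, and none of the 12 earlier arrays was. The mean of both probe sets differed by 0.16 between P4 and P0 to P3. An annotated long noncoding RNA, Nphs1os, lies within the gene at chr7:30462164-30465591, and which transcripts each probe set reads was not tested.

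Kirrel encodes NEPH1, which binds nephrin across the slit (chr3:87078593-87174777). Its P4 values were 6.94, 7.69 and 7.66, against 6.76 to 7.59 (median 7.21) in P0 to P3. The highest value of each replicate number was that of P4, and 2 of 3 P4 arrays exceeded all earlier ones. The difference of 0.26 did not pass (95% interval -0.18 to 0.70, limma adjusted p = 0.897), nor did it with the array set as a block (0.13). Kirrel was above background on all 10 arrays of replicates 2 and 3, by 0.41 to 1.24, and on none of the 5 first replicates, where it fell short by 0.09 to 0.46. Whether Kirrel was detected thus differed by array set and not by day.

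Cd2ap, the adaptor that ties nephrin to the actin skeleton (chr17:42748887-42876707), was far above background throughout, by 3.32 to 4.15. At P4 its values were 10.81, 10.60 and 10.43, within or next to the earlier range of 10.18 to 10.79 (median 10.53). The difference was 0.11 (95% interval -0.12 to 0.34). Tcf12 encodes an E protein, a transcription factor that pairs with other helix-loop-helix factors (chr9:71844252-72111893). Its P4 values of 9.10, 9.57 and 9.45 lay inside the earlier range of 8.78 to 9.89 (median 9.43). The difference was 0.03 (95% interval -0.37 to 0.43), and it exceeded background by 1.51 to 3.23. Both genes are transcribed in many cell types, and neither passed in any of the 3 comparisons.

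Synpo encodes synaptopodin, an actin associated protein of mature foot processes (chr18:60593981-60660173). Its values at P4 were 6.31, 6.50 and 6.33, and earlier 6.12 to 6.46 (median 6.35). The groups overlapped, and 1 of 15 arrays, P4 replicate 2, was above background, by 0.05. The difference was 0.06 (95% interval -0.15 to 0.27, limma adjusted p = 0.999). At values this near background a small change may not have been detectable on these arrays.

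Over the 8 genes, 2 were called higher at P4 than in P0 to P3 (Podxl and Ptpro), beside 2.23% of all named genes, and none was lower, beside 1.25%. Their median difference was 0.18, against 0.00 over all genes. With the array set as a block Plce1 joined them, for 3 of 8 beside 4.18%. From P3 to P4 only Ptpro passed, beside 0.637%.

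**Figure D3:**
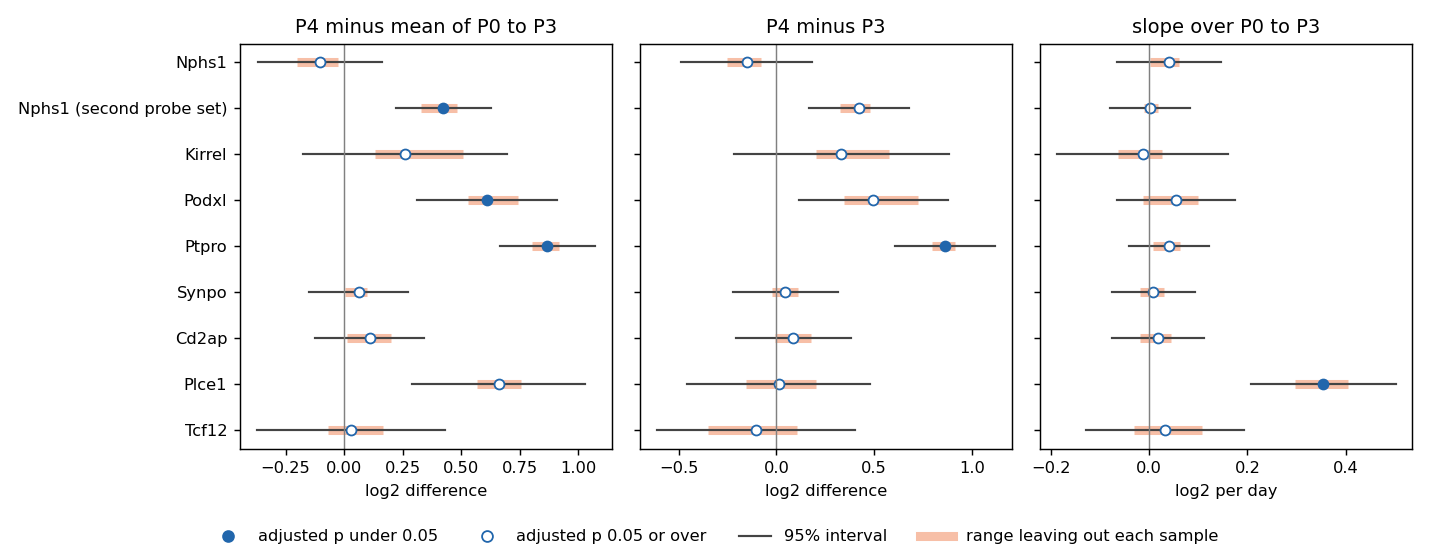
Differences of the 8 genes and the second Nphs1 probe set in the 3 comparisons (log2, and log2 per day for the slope), with 95% intervals as thin lines and the range obtained by leaving out each of the 15 samples in turn as broad bars. Filled points passed at an adjusted p of 0.05. Ptpro passed in both comparisons with P4 and Plce1 in the slope only.

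The genes whose values ran most like those of Podxl and Ptpro were looked up over all 15 arrays, after the mean of each replicate number was subtracted. For Podxl they were Pantr1 (r = 0.92), Sox9 (0.92) and Zbtb7c (0.92). For Ptpro they were Mal2 (0.97), Arfgef3 (0.96) and Cav2 (0.96). All 6 were called higher at P4, by 0.56 to 2.69. That adds no support, since they were picked for likeness to genes called higher at P4 on the same arrays. The correlations describe 15 arrays that share the step at P4.

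Sequences before the start sites are shown for Ptpro, which stepped up at P4, for Plce1, which climbed earlier, and for Nphs1, whose probe sets differed. They are the 250 bases upstream of a RefSeq start in GRCm38.p6, each on the plus strand, read 5′ to 3′. Capitals mark E-boxes, CANNTG, the motif that E proteins such as Tcf12 bind. The Plce1 and Nphs1 windows belong to starts inside the span of the gene given above.
Ptpro, chr6:137252049-137252298: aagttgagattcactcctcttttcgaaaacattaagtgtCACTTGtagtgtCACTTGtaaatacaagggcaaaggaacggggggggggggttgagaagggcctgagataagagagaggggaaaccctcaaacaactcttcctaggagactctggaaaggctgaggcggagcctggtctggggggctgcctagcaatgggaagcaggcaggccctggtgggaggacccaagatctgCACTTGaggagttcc
Plce1, chr19:38523947-38524196: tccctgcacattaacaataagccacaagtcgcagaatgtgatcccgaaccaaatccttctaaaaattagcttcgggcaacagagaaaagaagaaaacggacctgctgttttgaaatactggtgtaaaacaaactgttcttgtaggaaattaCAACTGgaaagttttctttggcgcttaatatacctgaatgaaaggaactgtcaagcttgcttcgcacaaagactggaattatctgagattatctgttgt
Nphs1, chr7:30459808-30460057: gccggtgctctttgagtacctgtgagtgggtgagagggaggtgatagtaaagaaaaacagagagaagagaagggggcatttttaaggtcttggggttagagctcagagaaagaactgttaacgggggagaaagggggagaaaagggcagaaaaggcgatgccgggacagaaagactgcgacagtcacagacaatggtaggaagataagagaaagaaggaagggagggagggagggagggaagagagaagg
The Ptpro window held 3 E-boxes with the same letters, CACTTG, the Plce1 window held 1 and the Nphs1 window none. Of 32851 RefSeq windows of this length 66.2% held at least 1 E-box on either strand. Among the 8 genes 6 had a window in the table, and 4 of these held an E-box in at least 1 window. The E-box CAGCTG, a kind of CANNTG, was found before Cd2ap and before 1 start of Tcf12, beside 13.0% of all windows. CACCTG was in none of the 8 windows of these genes (17.2% of all), nor was GCGTGGGNG, which WT1 and EGR proteins bind (1.65%). These matches describe letters and no binding.

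Other genes of the podocyte were read from 5 lists that together hold 71 measured genes. Of these 10 were called higher and 4 lower at P4 than in P0 to P3, beside 2.23% and 1.25% of all named genes. The median difference of the 71 was 0.14, against 0.00 over all genes. With the array set as a block 17 were higher, beside 4.18% of all named genes. Of 14 genes of the slit diaphragm and its partners, Cdh3 alone passed. This P-cadherin rose 2.58-fold, from a mean of 7.74 to 9.11 ± 0.50 (SD, n = 3, limma adjusted p = 7.04e-04), and all 3 P4 arrays lay above all earlier ones. Kirrel2, a relative of Kirrel, had a difference of 0.33 (adjusted p = 0.129). Prkci, a polarity kinase, differed by 0.16 (0.65), and Iqgap1, a scaffold of the actin skeleton, by 0.32 (0.894). Iqgap1 passed with the array set as a block (0.0375). Kirrel3 and the calcium channel gene Trpc6 were above background on no array.

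Of 15 genes of the foot process skeleton 2 rose. Arhgap24, a regulator of small GTPases in podocytes, rose 2.03-fold to 8.26 ± 0.17 (SD, n = 3, limma adjusted p = 6.28e-05), with every P4 array above every earlier one. Myh9, a nonmuscle myosin heavy chain, rose 1.90-fold (adjusted p = 0.0269), but not without P4 replicate 2 or P4 replicate 3 (at most 0.19). Slc9a3r2, which links podocalyxin to the membrane skeleton, differed by 0.31 (adjusted p = 0.0704) and Anln, an actin bundling protein, by 0.42 (0.384). Slc9a3r2 passed with the array set as a block (0.0138).

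Among 12 transcription factors of the podocyte lineage Dach1 rose 2.42-fold (8.46 to 9.74 ± 0.26, SD, n = 3, limma adjusted p = 4.93e-05). It was already rising over P0 to P3, by 0.37 per day (adjusted p = 0.00315), and its difference of 0.57 from P3 to P4 did not pass (0.276). That difference passed with the array set as a block (0.0111). Foxd1, which is also a gene of the renal stroma, and Zhx2 fell by 0.74 and 0.49 against the mean of P0 to P3 (adjusted p = 0.00708 and 0.0237). Foxd1 had fallen before P4, by 0.48 per day over P0 to P3 (adjusted p = 5.90e-04), with a mean of 8.32 at P3 and 8.49 at P4. The Foxd1 call was lost without P4 replicate 2 and that of Zhx2 without any 1 of the 3 P4 arrays. Foxc1 differed by -0.51 (adjusted p = 0.0795). Wt1, singled out after its values were seen as the best known regulator of podocytes, was above background on all 15 arrays, with a mean of 10.49 in P0 to P3 and 10.42 ± 0.07 (SD, n = 3) at P4.

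The list of glomerular basement membrane and adhesion genes held the most calls. All 16 were above background on the 3 P4 arrays, beside 49.6% of all named genes. Of the 16, 5 rose, beside 2.23% of all named genes, and none was lower, beside 1.25%. Npnt, or nephronectin, rose 1.97-fold (limma adjusted p = 5.07e-04), and the laminin chains Lamb1 and Lamc1 rose 1.83-fold and 2.18-fold (6.05e-04 and 0.00664). Dag1, dystroglycan, rose 1.88-fold (0.0207) and Agrn, agrin, 1.74-fold (0.0283, named after its value was seen). Npnt alone had every P4 array above every earlier one. The calls of Lamc1, Dag1 and Agrn were lost without P4 replicate 2, and those of Dag1 and Agrn also without P4 replicate 3, with adjusted p of up to 0.219. The Agrn call was lost without P0 replicate 2 too. Lamb1 and Lamc1 had already risen over P0 to P3 (limma adjusted p = 0.00179 and 0.0338 for the slope). These proteins are made by many epithelia.

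Of 14 genes of the podocyte surface and secreted proteins 1 rose and 2 fell. Npr3, the clearance receptor for natriuretic peptides, rose 2.21-fold to 8.12 ± 0.30 (SD, n = 3, limma adjusted p = 1.22e-04). Robo2, a receptor for Slit ligands that nephron progenitors also carry, fell by 1.63 (adjusted p = 3.01e-06), with its 3 P4 values below all 12 others, and it had fallen over P0 to P3 too. Colec12, a scavenger receptor, fell by 0.59 (0.00977), but not without P4 replicate 2 or P4 replicate 3, and it too had fallen over P0 to P3 (0.0244 for the slope). Plat, the tissue plasminogen activator, differed by 0.55 (adjusted p = 0.221). Ddn, or dendrin, was above background on no array.

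**Figure D4:**
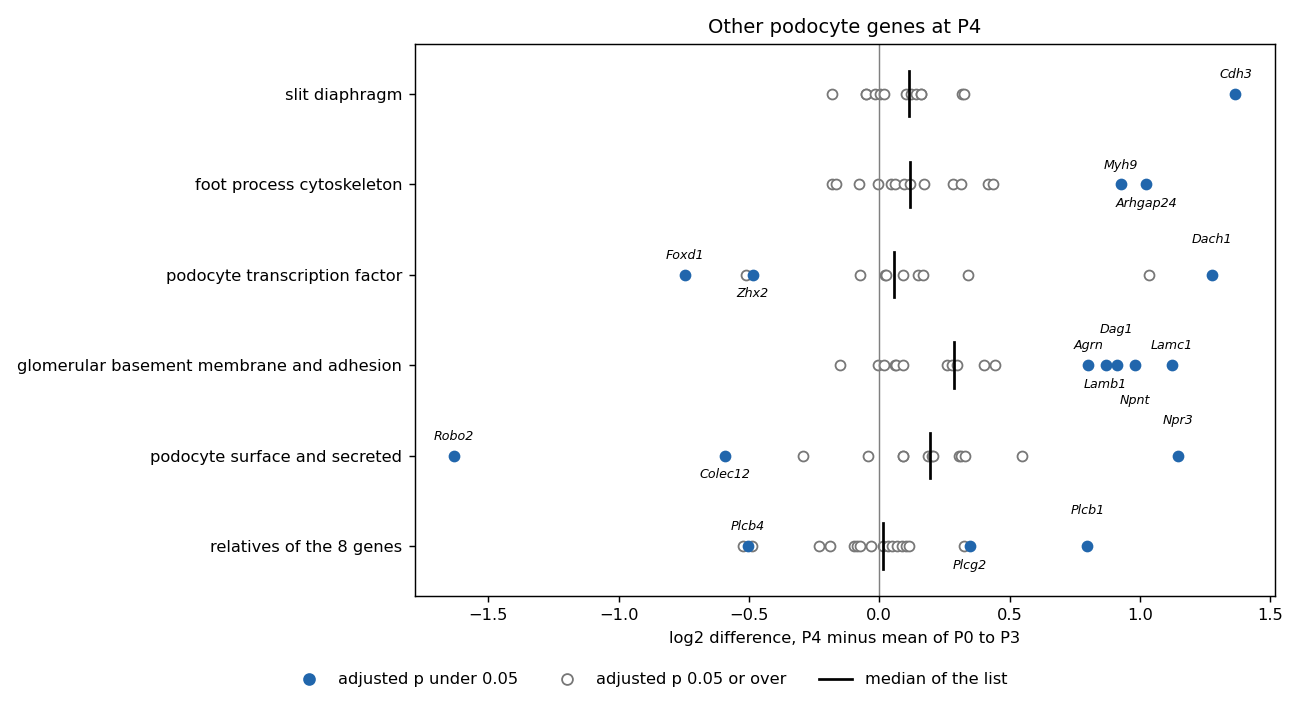
Each point is 1 gene of the 5 lists of other podocyte genes or of the relatives of the 8 genes, placed by its log2 difference between P4 and the mean of P0 to P3, with filled and named points for an adjusted p under 0.05 and a black line for the median of the list. The list medians lie between 0.02 and 0.29, and the named genes reach from Robo2 at -1.63 to Cdh3 at 1.37.

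Relatives of the 8 genes were read for comparison. Of 19 measured, 2 were higher and 1 lower at P4, beside 2.23% and 1.25% of all named genes. With the array set as a block 2 were higher, beside 4.18%, and 3 lower, beside 557 of the 19938 genes. Plcb1, another phospholipase C, rose 1.74-fold (limma adjusted p = 6.48e-04), with all 3 P4 arrays above the rest. Plcg2, above background on 2 P4 arrays and no other, rose 1.27-fold in deposited value (0.0323) and Plcb4 fell by 0.50 (0.0283), and both calls were lost without any 1 of the 3 P4 arrays and without some of the earlier ones. The relatives Cd34 of Podxl, Synpo2l of Synpo, and Ptprb and Ptprh of Ptpro were above background on no array, as was Kirrel3.

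Markers of other cells that the sort could hold were read beside these results. In the proximal tubule list Lrp2 and Slc22a6 were higher at P4 of 8 markers, and the summed level was 51.7 to 54.2 before and 54.6 to 55.9 at P4. Hnf4a differed by 0.39 (limma adjusted p = 0.255). In the ureteric bud list Gata3 and Krt8 were higher of 9, with 60.0 to 63.7 before and 64.9 to 66.4 at P4. Gata3 rose by 1.88 against P0 to P3 (limma adjusted p = 5.64e-06) and by 1.89 from P3 to P4 (2.93e-04). Gata3 was above background on all 3 P4 arrays and on no earlier array. Krt8 rose by 0.67 against P0 to P3 (0.0154), and Hoxb7 differed by 0.17 (0.723). Of the proximal tubule markers 5 of 8 were above background on all 3 P4 arrays, and of the ureteric bud markers 6 of 9, beside 49.6% of all named genes. Ret and Calb1 of the ureteric bud list and Cubn and Fut9 of the proximal tubule list were above background on no array. Of 8 macrophage markers none was called higher or lower by limma, and Tyrobp was called higher with the array set as a block (0.0293). Cd68 and Tyrobp had differences of 0.00 and 0.43. Both were above background on 14 arrays, all 3 P4 arrays included, and C1qa on 8 arrays, 2 of them of P4. The summed level of the 8 markers was 49.6 to 52.2 before and 51.4 to 52.5 at P4. Adgre1, Csf1r, Ptprc, Lyz2 and Fcer1g were above background on no array. Of 8 mesangial and stromal markers Itga8 was lower by 2.26 and Meis1 by 0.78. The summed level was 58.9 to 63.3 before and 58.5 to 59.7 at P4. Itga8 is in the cap mesenchyme list too, so its fall enters both lists. On all 3 P4 arrays 6 of the 8 were above background, among them Pdgfrb, Col3a1, Acta2 and Pdgfra, beside 49.6% of all named genes. The calls of Slc22a6, Krt8 and the endothelial Tek were each lost without at least 1 of the P4 arrays. The part of these cells in the podocyte gene values was not tested.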

How the data were processed

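Cells were sorted, and RNA was amplified in 1 round and hybridised to whole-transcript arrays. The authors deposited 1 table of log2 values for 15 samples, made per the labels with Affymetrix Expression Console. No source used here gives its version, algorithm or background correction, so folds of dim genes may be understated, and no scanner files were used here. Values were used as deposited. Probe sets with several symbols or none were left out. Limma 3.58.1 in R 4.3.3 fitted a mean for each day to 19938 genes with no filter on low values. Contrasts set P4 against the mean of P0 to P3 and against P3, and took the slope over P0 to P3, two-sided, with Benjamini-Hochberg adjustment over all genes and a threshold of 0.05. The fit was tested on simulated data. Array number limits the precision. Deviations of same-numbered samples correlated over 0.1 in 18 of 18 pairs of P0 to P3 (lowest 0.12) and in 29 of 30 pairs of all days. A difference between first replicates and the rest can give such correlations by itself, so they do not show that samples were paired. The main fit held no block in any comparison, and the replicate number entered as a block in an alternative only. Alternatives changed the filter, scaling, blocks, probe set rule, variance trend and samples. The 8 genes and all lists were chosen with earlier results of these data known. Beyond the 8 genes, the text names up to 4 genes a list by smallest p, the check genes Crym, Six2, Lhx1 and Jag1, the 3 genes most like Podxl and Ptpro, and the 2 markers of each other cell type whose probe sets had the highest mean value. Some further markers of other cells are named for their call or their detection.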

Additional observations from a re-analysis of the deposited data

How the results depend on the processing

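A filter at the median of all values in at least 3 arrays kept 5 of the 8 genes (not Nphs1, Synpo or Ptpro), and 0 of those kept rose from P3 to P4. The replicate block raised the calls over all genes from 694 to 1491 (P4 against P0 to P3), 170 to 426 (P4 against P3) and 324 to 931 (slope), and the array set as a block to 1390, 394 and 841. Other podocyte genes called higher went from 10 to 20 and 17. The blocks changed no call among the 8 genes but that of Plce1. In replicates 2 and 3 alone 0 of the 8 genes rose over P0 to P3. Detection at P4 gave 7 and 2 genes at the 90th and 99th percentiles, for which the share of all named genes is not given here. Some differences near 0 changed sign, and none of these was called. For P4 against P0 to P3 these were Nphs1 as the mean of probe sets (0.16) and Tcf12 in replicates 2 and 3 (-0.0115). For P4 against P3 they were Nphs1 as the mean (0.13) and Plce1 under quantile normalization (-0.006) and median centring (-0.0104). For the slope they were Synpo in replicates 2 and 3 (-0.0054), and under quantile normalization Kirrel (5e-04) and the second Nphs1 probe set (-5e-04). Leaving out 1 sample gave 1 to 3 of the 8 genes, 405 to 746 genes and 6 to 12 other podocyte genes higher at P4, 89 to 170 genes against P3, and 0 to 1 of the 8 genes and 145 to 294 genes in the slope. The lowest counts came without P4 replicate 2, P4 replicate 3 and, for the slope, P0 replicate 3. Against P0 to P3 Tcf12 ran from -0.07 to 0.17. Against P3, Synpo ran from -0.024 to 0.109, Plce1 from -0.16 to 0.20, Cd2ap from -0.0087 to 0.177 and Tcf12 from -0.35 to 0.10. In the slope, Podxl ran from -0.0135 to 0.0989, Synpo from -0.0194 to 0.0292, Cd2ap from -0.0182 to 0.0447, Tcf12 from -0.0299 to 0.107, Kirrel from -0.0627 to 0.026 and the second Nphs1 probe set from -0.0104 to 0.0181. The second probe set was fitted after seeing the data. Causes were not tested.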
